A study of Caenorhabditis elegans with 30 samples.

Results

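The genes described here encode the major sperm proteins (MSPs) of Caenorhabditis elegans. They were taken as the protein-coding rows of the count table whose WormBase symbol is msp- followed by a number, which gave 31 of 46748 genes. RNA had been sequenced from whole worms of the wild-type strain N2, all hermaphrodites aged 5 days and all fed an RNAi vector. The 30 libraries fall into 10 groups of 3, and every title starts with ZK or RM. Under ZK stand L4440, the empty feeding vector, and RNAi against C01A2.5 (the gene tads-1), ZK795.1 (ipmk-1), M04C9.5 (dyf-5) and R186.7 (pnn-1). Under RM stand a second L4440 group and RNAi against F25H2.5 (ndk-1), F55H2.6 (clu-1), R04E5.10 (ifd-1) and F26D12.1 (fkh-7). The empty-vector groups are called L4440_ZK and L4440_RM, and each RNAi group was compared with that of its own prefix. Nothing in the labels ties replicate libraries to separate worm cultures, so p-values measure the spread between these libraries, which may be technical.

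MSPs are small, abundant proteins that nematodes make during spermatogenesis. They assemble into filaments that move the crawling, amoeboid sperm, a task that actin has in most other motile cells. Sperm also release MSP, which signals to oocytes to resume meiosis and to the sheath around them to contract. A hermaphrodite makes its sperm as a larva and then switches its germline to oocytes, so in an adult little new MSP transcription takes place.

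The 31 genes sat in clusters on 2 chromosomes. In build WBcel235, 13 lay on chromosome II between 4785898 and 5810330, in groups of 10 and 3 when a gap of 200 kb was taken to separate clusters. The other 18 lay on chromosome IV between 5055631 and 10143740, in groups of 9, 7 and 2. Every member had 1 exon and no annotated UTR, and 28 had a coding length of 384 bp. The exceptions were msp-32 with 360 bp and msp-58 and msp-74 with 234 bp each. Another member lay within 5 kb of 14 of them, most closely msp-63 and msp-142, which were 479 bp apart on opposite strands. Introns of other genes held 4 members, namely msp-33 in gst-9, msp-38 in dhs-12, msp-31 in aagr-2 and msp-45 in srb-13. The libraries do not mark strand, so reads of these 4 cannot be told apart from unspliced reads of their hosts. MSP genes are near-identical copies, and how reads matching several copies were counted is not given in the sources used here. Values of a single copy are therefore uncertain, and sums over the family depend less on how reads were divided between copies. If reads matching several copies were left out, the sums would miss them too.

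Library totals ran from 31835911 to 44987307 gene counts. The RNAi target was lower than in L4440 for tads-1, with a log2 fold change of -1.96, for ipmk-1 with -0.62, for pnn-1 with -2.58, for ndk-1 with -4.46 and for clu-1 with -1.08. It was higher for dyf-5, at 4.75, and for ifd-1, at 2.01, and fkh-7 was not called, at 0.23 with an adjusted p of 1.00 from edgeR's quasi-likelihood test. Groups M04C9.5, R04E5.10 and F26D12.1 are therefore called by their labels throughout. Of 7 fixed sperm markers, 6 had counts in every library of every group, at a summed level of 4.59 to 5.03 counts-per-million (CPM, relative to all gene counts of a library) in L4440_ZK, and msd-1 was at 0 in most groups. Oocyte, germline, intestine and muscle markers were detected in every library.

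Some libraries stood apart in MSP composition, and this touches several results. Library descriptions carry a lane tag and 1 of 2 punctuation marks before the running number. There are 7 libraries outside C01A2.5 that match a C01A2.5 library in both, namely ZK795.1 replicates 1 and 2, M04C9.5 replicate 3, F55H2.6 replicates 1 and 2, R04E5.10 replicate 3 and F26D12.1 replicate 3. These are called matching libraries. The labels do not say what tag and mark together stand for, and the combination was chosen after MSP counts of single libraries had been seen. On the lane tag alone 4 more libraries match (replicate 2 of L4440_ZK, R186.7, L4440_RM and F25H2.5), and these do not have the composition described next. The genes msp-76, msp-81, msp-50 and msp-78 made up 39.7% to 46.5% of MSP counts in the 3 matching ZK libraries and 30.4% to 39.03% in the 4 matching RM libraries. They made up 16.9% to 25.9% in the 20 other libraries outside C01A2.5, with 16.9% to 20.4% in the 4 that match on the tag alone, and 18.6% to 19.0% in C01A2.5. The 4 genes were ranked on the ZK libraries and the libraries grouped on counts already seen, so these shares are a description.

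**Figure D1:**
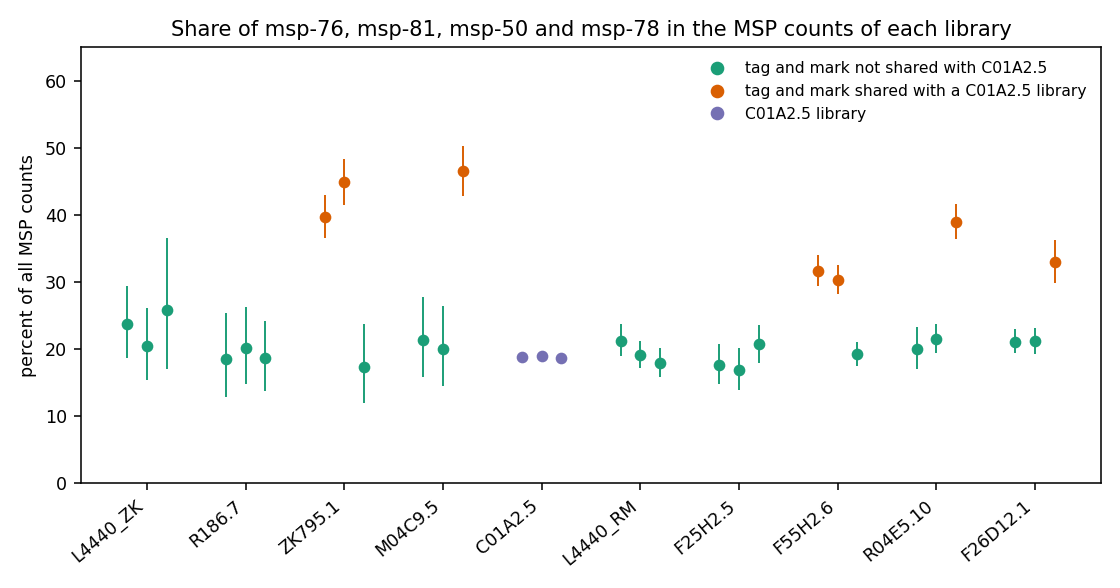
The vertical axis gives the percent of all MSP counts in a library that came from msp-76, msp-81, msp-50 and msp-78, with exact 95% binomial intervals that cover counting error only, and the horizontal axis gives the 10 groups with 3 libraries each. The 7 libraries matching a C01A2.5 library in lane tag and mark sit between 30.4% and 46.5%, above all 23 others, which reach at most 25.9%.

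A term for the match was added to the edgeR fits after the data had been seen. It describes the same MSP counts that prompted the grouping, so its calls are no independent test. In the ZK libraries outside C01A2.5 it marked 9 of 20 MSP genes as higher in the 3 matching libraries, where 0.082% of all 14642 genes were so marked. The log2 difference was 3.45 for msp-81, 3.39 for msp-50, 3.34 for msp-78 and 3.30 for msp-76, and the other 5 were msp-31, msp-152, msp-57, msp-45 and msp-38. Of 35 other sperm genes 0 were called by edgeR, with 7 at an unadjusted p under 0.05. At that threshold stood 17 of the 20 MSP genes and 643 of all 14642 genes. The log2 differences of the 35 other sperm genes ran from -0.34 to 2.43, with a median of 0.32. The median was 2.05 over the 20 MSP genes and -0.01 over all genes.

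In the RM libraries the same term called 0 of 26 MSP genes by edgeR. At an unadjusted p under 0.05 there were 2 members higher, msp-78 at 1.02 and msp-81 at 0.97, and 9 lower, with a median of -0.47 over the members. Of 54 other sperm genes in the RM fit 0 were called, 23 had an unadjusted p under 0.05, and the median was -0.45. At that threshold stood 622 of all 15795 genes, whose median was 0.00.

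The same contrast set against the level in C01A2.5 differed widely between copies. In the 9 ZK libraries without a match, 25 of the 26 abundant members stood between 0.095% and 0.288% of their C01A2.5 mean, and msp-63 stood at 0.046%. In the 3 matching libraries msp-81 stood at 1.94%, msp-78 at 1.52%, msp-76 at 1.33%, msp-31 at 1.20% and msp-50 at 1.04%. The most abundant member in C01A2.5, msp-64, stood at 0.217% in matching and 0.149% in other libraries. The sperm genes used as partners of MSP below summed to 15.8 to 17.1 CPM in the matching ZK libraries and to 13.8 to 18.9 in the others. In C01A2.5 this sum was 1776 to 1961 CPM. A sum is set mostly by its most abundant genes, so it does not show whether single partners differed. The 3 other genes marked by the term in the ZK libraries were F21F3.2, msrp-5 and D1086.17. Their counts ran from 22 to 32, 13 to 20 and 36 to 37 in the matching libraries, from 1 to 8, 1 to 7 and 8 to 16 in the other 9, and from 1156 to 1262, 1746 to 2011 and 4627 to 5206 in C01A2.5.

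**Figure D2:**
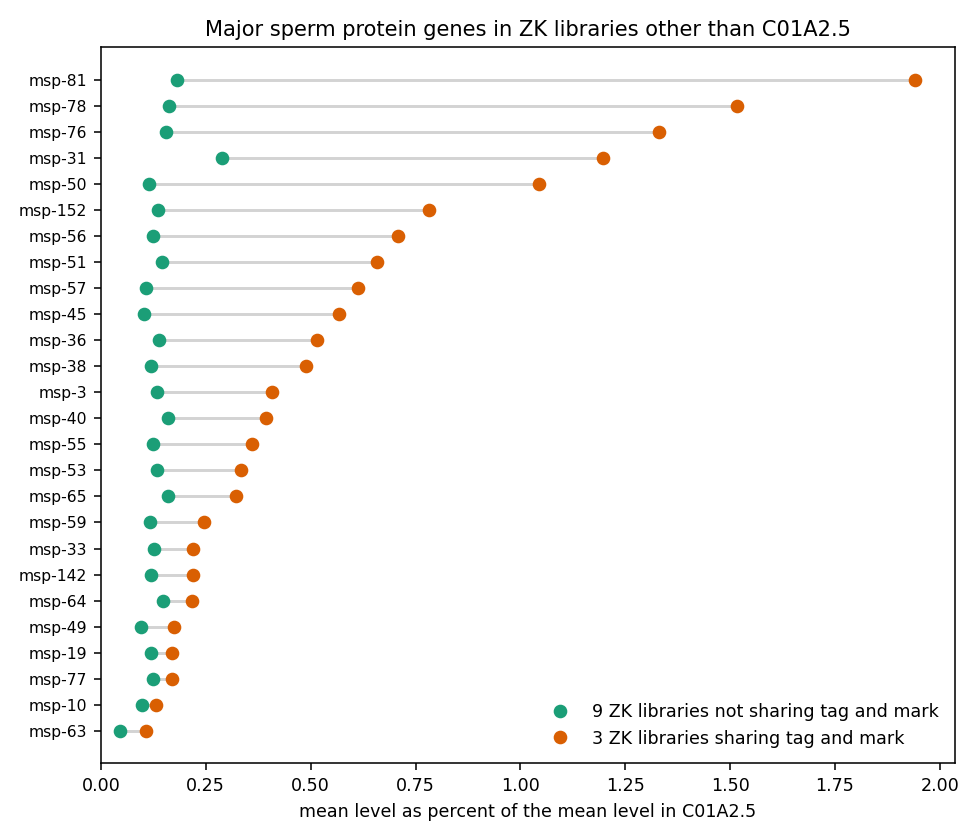
The horizontal axis gives the mean level of each MSP gene, by library totals, as a percent of its mean in the 3 C01A2.5 libraries, for members above 10 CPM there. Orange points are the 3 matching ZK libraries and green points the 9 others outside C01A2.5, and msp-81 shows the widest gap, from 0.182% to 1.94%.

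Summed over the 31 genes, MSP transcripts were scarce in every group but C01A2.5. The sum in CPM was 6.32, 6.73 and 1.90 in the 3 L4440_ZK libraries and 3.95, 5.53 and 5.35 in R186.7. It was 21.4, 23.7 and 3.85 in ZK795.1 and 5.07, 4.39 and 18.0 in M04C9.5. The values above 10 in these 4 ZK groups were those of the 3 matching libraries.

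In the RM groups the sum was 30.1, 48.3 and 36.4 in L4440_RM, 18.4, 18.0 and 22.1 in F25H2.5, and 40.4, 46.6 and 54.4 in F55H2.6. It was 16.2, 38.4 and 43.6 in R04E5.10 and 51.3, 49.8 and 25.8 in F26D12.1. Every RM library was above every L4440_ZK and R186.7 library, while the matching ZK795.1 and M04C9.5 libraries overlapped the lower RM libraries, and the 3 F25H2.5 libraries lay below the 3 of L4440_RM.

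C01A2.5 stood far above all of these, with 3451, 3375 and 3806 CPM. As group means with SD over n = 3 libraries, the order ran from C01A2.5 with 3544 ± 230 to F55H2.6 with 47.1 ± 7.02, F26D12.1 with 42.3 ± 14.3, L4440_RM with 38.2 ± 9.26, R04E5.10 with 32.7 ± 14.6 and F25H2.5 with 19.5 ± 2.27. Below these came ZK795.1 with 16.3 ± 10.9, M04C9.5 with 9.16 ± 7.68, L4440_ZK with 4.99 ± 2.68 and R186.7 with 4.95 ± 0.865. C01A2.5 lay above every other library, and each other pair of neighbours in this order overlapped in its libraries. RNA came from whole animals, so fewer MSP-expressing cells and less RNA per cell cannot be told apart.

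**Figure D3:**
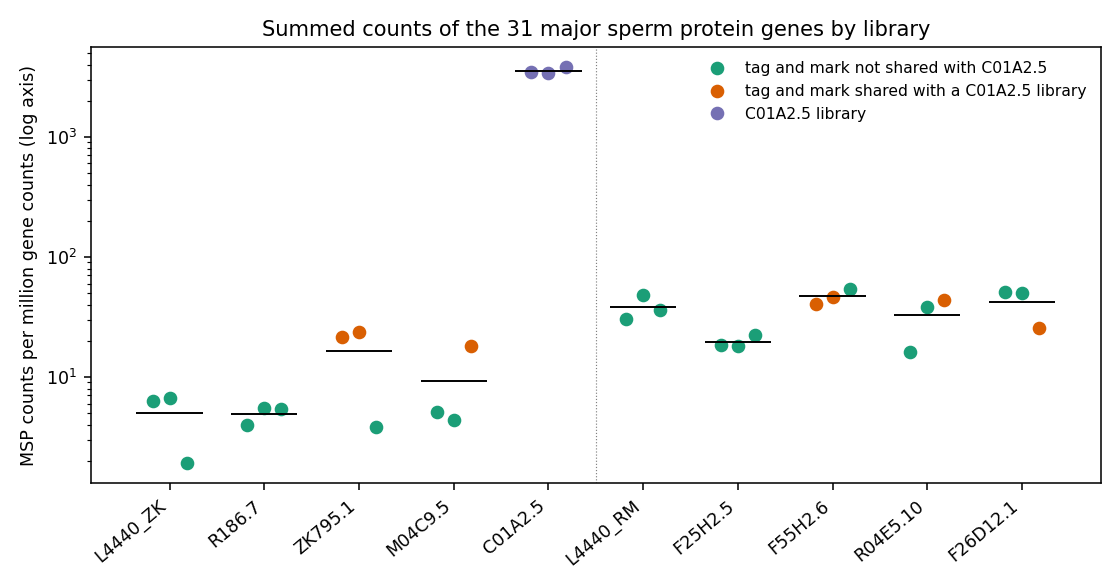
The vertical log axis gives the summed CPM of the 31 MSP genes, with 1 point per library, a line at each group's mean, and a dotted line between ZK groups on the left and RM groups on the right. The C01A2.5 libraries lie between 3375 and 3806, while the other 27 lie between 1.90 and 54.4, and the orange points match a C01A2.5 library in lane tag and mark.

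RNAi against C01A2.5 was accompanied by higher counts of every MSP gene. In this group the family took 0.354% ± 0.023 (SD, n = 3) of all gene counts, from 124306 to 132846 counts, against 85 to 257 in L4440_ZK. All 30 members tested rose and 0 fell, where 51.7% of all genes tested were called higher, 36.4% lower and 88.1% either way. The groups did not overlap for any of the 30, as was so for 88.2% of all genes. The median log2 fold change was 9.23, against 0.42 over all genes. The tested set depended on C01A2.5 itself, since only 20 members passed the low-count filter in a fit without that group. With no filter all 31 were called higher, with a median of 9.11. The median over the tested members was 9.22 with members that had 0 counts in L4440_ZK set to their lower bound. Scaling by relative log expression put the members at 9.01 and all genes at 0.19, and scaling by library totals put them at 9.47 and 0.66.

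The most abundant copies in C01A2.5 were msp-64, msp-50, msp-49 and msp-76, which together held 25.6% of the family's counts there. The gene msp-64 (WBGene00003457, chromosome II:5809947-5810330) had 8730, 10105 and 9394 counts in C01A2.5 and 23, 21 and 6 in L4440_ZK. After trimmed-mean scaling and division by coding length, its level was 605.0 ± 53.7 CPM per kilobase (SD, n = 3) against 1.18 ± 0.70. Every C01A2.5 library was above every L4440_ZK library, and the log2 fold change was 9.04 ± 0.20 (SE), with an adjusted p of 2.01e-15 from edgeR.

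The neighbours msp-49 and msp-50 lie 5048 bp apart on the same strand of chromosome II. The counts of msp-50 were 7923, 8950 and 8112 in C01A2.5 and 13, 20 and 6 in L4440_ZK. Those of msp-49 were 7211, 8036 and 7398 against 6, 7 and 6. Both were separated from the empty vector in all libraries, with log2 fold changes of 9.22 ± 0.58 for msp-50 and 10.11 ± 0.17 for msp-49. On chromosome IV, msp-76 had 7477, 7702 and 6983 counts against 16, 17 and 6, a log2 fold change of 9.05 ± 0.61.

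The smallest p-values in this comparison belonged to msp-19, msp-63, msp-51 and msp-53. Counts of msp-19 were 4322, 4432 and 4323 in C01A2.5 and 10, 7 and 3 in L4440_ZK, and its log2 fold change of 9.24 ± 0.14 had an adjusted p of 5.60e-31 from edgeR. Those of msp-51 were 2013, 2005 and 1726 against 3, 4 and 1, and those of msp-53 were 3027, 3007 and 2766 against 7, 8 and 1. The log2 fold changes were 9.33 ± 0.20 for msp-51 and 8.98 ± 0.18 for msp-53, and neither gene overlapped between the groups.

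Members with few counts in the empty vector allow no precise fold. The gene msp-63 had 1337, 1559 and 1425 counts in C01A2.5 and 1 count over all 3 L4440_ZK libraries, a ratio of 4061 with an exact 95% counting interval of 728.5 to 160438. The gene msp-10 had 3 counts in L4440_ZK and a ratio of 1496, with an interval of 511.5 to 7255. With 0 counts in L4440_ZK and a floor of 3 counts over the group, msp-113 was at least 198.6-fold higher, msp-74 at least 68.3-fold, msp-79 at least 14.1-fold, msp-32 at least 12.5-fold and msp-58 at least 10.7-fold. Among the 24 tested members with more than 3 control counts, the log2 fold change ran from 8.40 for msp-31 to 10.34 for msp-45. Intervals and floors cover counting error only.

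Levels within C01A2.5 fell into a broad upper set of 26 genes and a low set of 5, split where a member fell more than 20-fold below the highest. The upper set ran from msp-64 at 605.0 CPM per kilobase down to msp-63 at 92.6, a 6.54-fold range. The low set began with msp-113 at 13.6, followed by msp-74 at 7.80 and msp-58 at 1.19, and together its 5 members held 0.254% of the family's counts. Lowest were msp-79, with 16, 18 and 11 counts, and msp-32, with 9, 15 and 16. Both also had 0 counts in all 6 empty-vector libraries.

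The upper set was tightly repeated between libraries, since the coefficient of variation over the 3 C01A2.5 libraries was 2.404% to 8.88%, with a median of 6.70%. Its 11 members on chromosome II had a median level of 395.6 CPM per kilobase and a range of 92.6 to 605.0. The 15 on chromosome IV had a median of 259.8 and a range of 102.5 to 474.5, so the chromosomes overlapped widely. Near neighbours could differ in counted level, though values of single copies are uncertain, since how reads matching several copies were counted is not given. The genes msp-63 and msp-142, 479 bp apart, stood at 92.6 and 395.6, and msp-10 and msp-81, 1232 bp apart, stood at 102.5 and 299.3. The pair msp-79 and msp-78, 2892 bp apart, stood at 0.95 and 232.6.

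**Figure D4:**
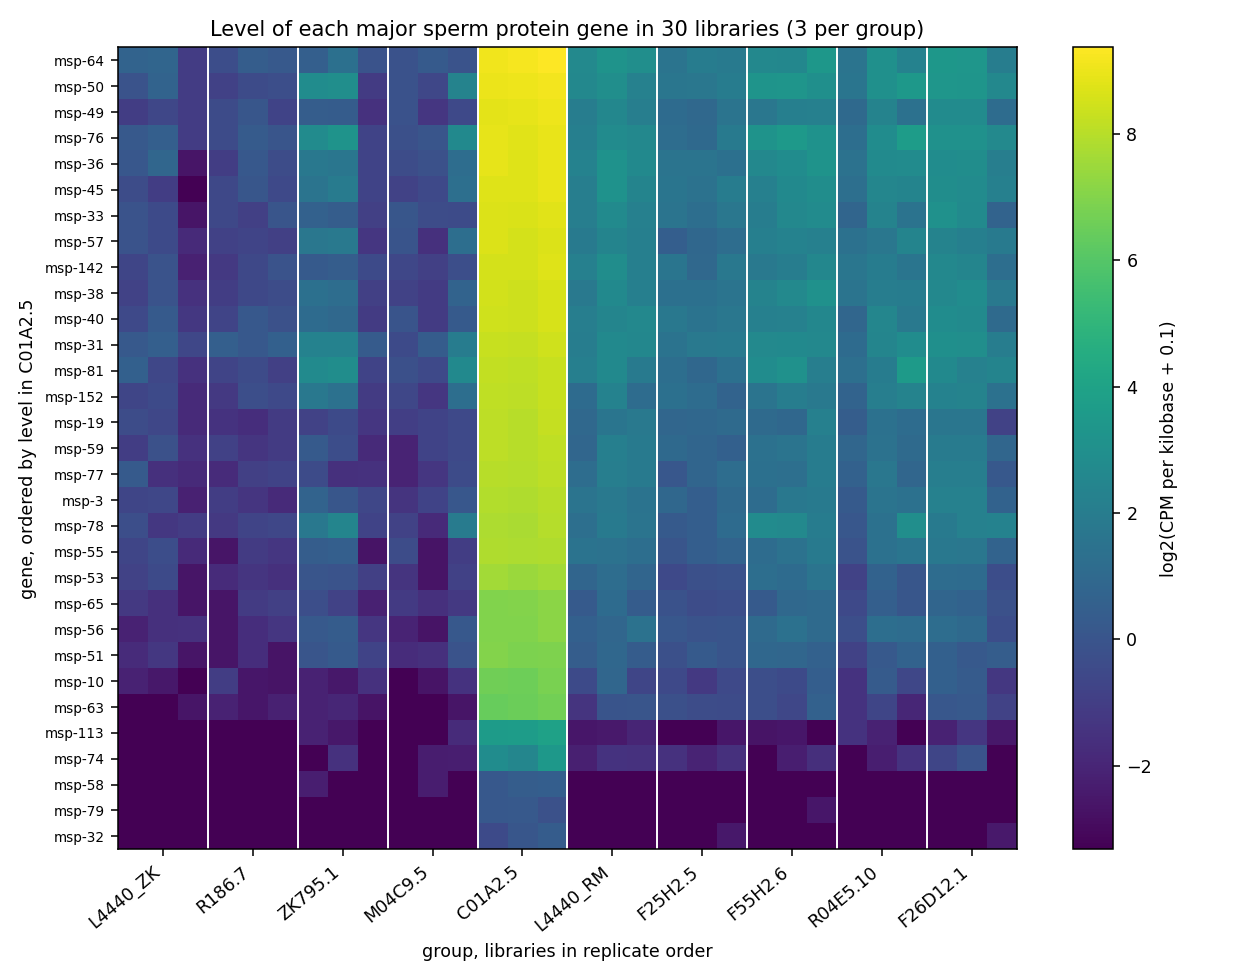
Each row is an MSP gene, ordered by its mean level in C01A2.5, and each column is 1 of 30 libraries, with colour giving log2 of CPM per kilobase plus 0.1. All rows are brightest in the 3 C01A2.5 columns, L4440_RM columns are brighter than L4440_ZK and R186.7 columns in most rows, and msp-50, msp-76, msp-81 and msp-78 are brighter than their neighbouring rows in ZK795.1 replicates 1 and 2 and in M04C9.5 replicate 3.

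Genes that act with MSP moved with it in C01A2.5. A list of 25 symbols of filament partners and MSP-domain sperm proteins matched 19 genes, and all 18 tested rose, where 51.7% of all genes did, with a median log2 fold change of 8.96. Among them were gsp-4, a protein phosphatase of sperm, at 9.498 ± 0.14, gskl-2, a sperm kinase of the GSK3 type, at 7.76 ± 0.12, and ssp-10, an MSP-domain protein, at 6.62 ± 0.09. In counts, MSP exceeded this list 1.89 to 1.94 times in the 3 C01A2.5 libraries and reached 0.138 to 0.403 times the list in the 9 ZK libraries outside C01A2.5 that do not match. Of 42 other spermatid and sperm genes tested, 40 rose and 1 fell, with a median of 7.34, including spch-3, a sperm chromatin protein, at 9.13 ± 0.13, and the PDZ-domain genes smz-1 and smz-2 at 7.74 ± 0.10 and 8.36 ± 0.11.

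The other lists are read against the shares over all genes in this comparison, 51.7% higher and 36.4% lower. Of 20 genes of the sperm and oocyte decision, 6 rose and 13 fell. Among them were fog-3, which directs germ cells to become sperm, at 4.64 ± 0.14, and puf-8, a regulator of that switch, at -1.22 ± 0.05. The gene fem-2 of the same list stood at -0.98 ± 0.05. Of 27 oocyte and eggshell genes 25 fell and 2 rose, with a median of -1.32, among them egg-2 at -1.73 ± 0.06 and the yolk receptor rme-2 at -1.54 ± 0.06. Of 25 genes through which oocytes and sheath respond to MSP, 14 fell and 9 rose, among them the innexin inx-22 at -1.32 ± 0.05. The last 2 lists share 3 genes.

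Marker levels of other cells also differed in the C01A2.5 libraries. The 7 sperm markers summed to 848.2 to 956.7 CPM. The 6 oocyte markers summed to 3238 to 3586, against 7763 to 8439 in L4440_ZK. The 4 intestine markers summed to 44924 to 64099 against 28128 to 29674, and mab-3, a gene of male development, stood at 2.39 to 3.49 against 0.291 to 0.369. Germline markers were lower, at 805 to 851 against 1152 to 1205. Higher were markers of muscle, at 510 to 590 against 307 to 354, and of epidermis, at 56.1 to 60.1 against 35.3 to 41.1. So were those of neuron, at 217 to 230 against 191 to 211, and of somatic gonad, at 19.0 to 19.3 against 7.76 to 9.51. Embryo markers overlapped. The part of these cell types in the MSP result was not tested.

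The empty-vector groups themselves differed in MSP. L4440_RM against L4440_ZK called 26 of 30 tested members higher and 0 lower, where 23.9% of all genes were called higher, 19.9% lower and 43.8% either way. The 30 were filtered on all libraries, C01A2.5 included. With the 6 empty-vector libraries alone, 24 members passed the filter and 24 were called higher. The groups did not overlap for 28 members, as was so for 52.6% of all genes. The median log2 difference was 2.76 over the members and 2.69 over the 24 with more than 3 counts in L4440_ZK, against 0.08 over all genes. Neither group holds a library that matches C01A2.5 in tag and mark, and replicate 2 of each matches on the tag alone. Prefix and all that goes with it cannot be told apart here.

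The 4 members with the smallest p show the size of this difference. Counts of msp-142 were 65, 90 and 58 in L4440_RM and 8, 11 and 2 in L4440_ZK, a log2 difference of 3.37 ± 0.44 with an adjusted p of 4.29e-06 from edgeR. Those of msp-51 were 18, 22 and 16 against 3, 4 and 1, a difference of 2.80 ± 0.49. Those of msp-49 were 58, 72 and 55 against 6, 7 and 6, a difference of 3.31 ± 0.54. All 3 genes were higher in every L4440_RM library than in any L4440_ZK library.

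The same held for msp-59, with 25, 54 and 49 counts against 6, 10 and 4 and a difference of 2.71 ± 0.47. Among the 24 members with more than 3 counts in L4440_ZK the difference ran from 2.21 for msp-53 to 4.00 for msp-45. The genes msp-113 and msp-74 had 4 and 5 counts over L4440_RM and 0 over L4440_ZK and were not called, and msp-58 and msp-79 had 0 in both. Partner genes of MSP moved likewise, with 14 of 18 higher, 1 lower and a median of 2.79. The gene fog-3 was higher by 1.79 ± 0.20, with an adjusted p of 1.67e-07 from edgeR. Marker sums of some other cells also differed without overlap between the empty-vector groups, while those of intestine, neuron, somatic gonad and embryo overlapped. Muscle markers summed to 476.4 to 698.9 CPM in L4440_RM against 307.3 to 353.7 in L4440_ZK, epidermis markers to 59.2 to 87.4 against 35.3 to 41.1, and germline markers to 1023 to 1065 against 1152 to 1205. Oocyte markers summed to 7270 to 7690 against 7763 to 8439, the sperm markers to 15.0 to 21.3 against 4.59 to 5.03, and mab-3 stood at 0.686 to 1.12 against 0.291 to 0.369. Their part in the MSP difference was not tested.

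**Figure D5:**
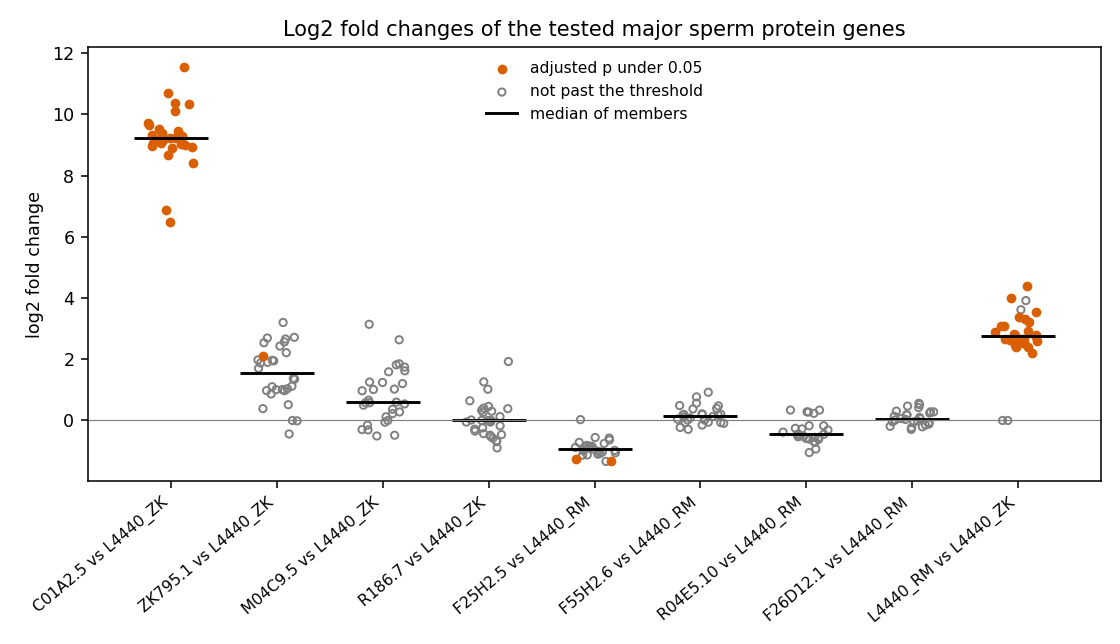
The vertical axis gives the log2 fold change of each MSP gene tested in a comparison, with 1 point per gene, filled where the adjusted p from edgeR was under 0.05, and a line at the median of the members. The medians are 9.23 for C01A2.5 and 2.76 for L4440_RM against L4440_ZK, and between -0.95 and 1.54 in the other 7 comparisons.

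RNAi against F25H2.5, which encodes the nucleoside diphosphate kinase ndk-1, went with lower MSP counts. Of 26 members tested, 2 fell and 0 rose, where 3.39% of all genes were called lower, 5.26% higher and 8.65% either way, and 14 had an unadjusted p under 0.05. The groups did not overlap for 21 members, as was so for 34.7% of all genes. The median log2 fold change was -0.95 against 0.00 over all genes, and 25 of the 26 members had a fold change below 0. No library of either group matches C01A2.5 in tag and mark, and replicate 2 of each matches on the tag alone.

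The members called were msp-57 and msp-36. Counts of msp-57 were 17, 21 and 30 in F25H2.5 and 52, 63 and 58 in L4440_RM, a log2 fold change of -1.31 ± 0.27 with an adjusted p of 0.00786 from edgeR. Those of msp-36 were 38, 34 and 34 against 69, 106 and 84, a fold change of -1.26 ± 0.34 with an adjusted p of 0.0329. All F25H2.5 libraries were below all L4440_RM libraries for both genes. The gene msp-53 had a fold change of -1.34 ± 0.42 and an adjusted p of 0.0579, and the exception in sign was msp-63 at 0.03 ± 0.50.

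How many members passed depended on the fit and on single libraries. The call of msp-36 was lost without any 1 F25H2.5 library and without L4440_RM replicate 2 or 3, at adjusted p-values of 0.0692 to 0.118 from edgeR. Without L4440_RM replicate 1, 3 members were called. The call of msp-57 held without any 1 library, at 0.0131 to 0.0456. A fit of these 6 libraries alone called 17 of 24, DESeq2 called 5, and with all 6 empty-vector libraries as the control 0 were called. Partner genes had a median of -0.64, with 1 of 15 lower, and of 39 other sperm genes 6 fell and 1 rose. The gene fog-3 fell by 1.53 on the log2 scale, with an SE of 0.18 and an adjusted p of 2.28e-04 from edgeR. Of 27 oocyte and eggshell genes edgeR called 0 lower and 1 higher, with 7 at an unadjusted p under 0.05.

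The other 3 RM groups gave no MSP call, and they share their controls with F25H2.5. In F55H2.6, RNAi against clu-1, edgeR and DESeq2 called 0 of 26 members, none at an unadjusted p under 0.05, where 18.9% of all genes were called, 10.4% higher and 8.54% lower. The member with the smallest p was msp-78, with 111, 90 and 58 counts against 35, 45 and 38 in L4440_RM, a fold change of 0.92 ± 0.50 with an adjusted p of 0.213. Its F55H2.6 libraries lay above L4440_RM without overlap, the first 2 of them match C01A2.5 in tag and mark, and the part of this in the value was not tested. Groups without overlap were seen for 3 of 26 members and for 32.2% of all genes. The median of the members was 0.15, and 0.35 without the matching libraries.

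In the same group fog-3 was higher by 1.04 ± 0.16, with an adjusted p of 5.48e-04 from edgeR. Oocyte and eggshell genes fell in 23 of 27 cases, where 8.54% of all genes fell, among them oma-2 at -0.47 ± 0.08. Partner genes of MSP had a median of 0.20, with 1 of 15 called higher.

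In the group labelled R04E5.10, 0 of 26 members were called by edgeR or DESeq2, with 1 at an unadjusted p under 0.05, where 2.28% of all genes were called, 1.56% higher and 0.715% lower. The smallest p belonged to msp-53, with 7, 22 and 12 counts against 24, 27 and 22 and a fold change of -0.93 ± 0.39 at an adjusted p of 0.278. Its libraries lay below those of L4440_RM without overlap, as was so for 2 of 26 members and for 22.6% of all genes. For msp-53 replicate 1 was lowest, as it was for the family sum. Replicate 3, which matches C01A2.5 in tag and mark, had 152 counts of msp-81 where replicates 1 and 2 had 37 and 58. The median of the members was -0.45, and it was -0.55 without replicate 3 and -0.14 without replicate 1.

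In the group labelled F26D12.1, edgeR and DESeq2 called 0 of 26, none at an unadjusted p under 0.05, where 0.00633% of all genes were called. The groups did not overlap for 1 member, as was so for 6.35% of all genes. The smallest p belonged to msp-50, with 151, 131 and 76 counts against 85, 92 and 62 and a fold change of 0.52 ± 0.35. The groups overlapped for msp-50, and replicate 3, which matches C01A2.5 in tag and mark, was the lowest. The family sum was also lowest in replicate 3, at 25.8 CPM, and the median of the members moved from 0.06 to 0.38 without it.

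Under the ZK prefix, ZK795.1 (RNAi against the inositol polyphosphate multikinase gene ipmk-1) had 1 member called higher of 30 and 0 lower, where 1.31% of all genes were called higher, 0.679% lower and 1.99% either way. At an unadjusted p under 0.05 there were 14 members. The median was 1.54, or 1.36 over the 24 members with more than 3 control counts, against 0.02 over all genes. The member called was msp-51, with 14, 14 and 8 counts against 3, 4 and 1 in L4440_ZK, a fold change of 2.11 ± 0.53 with an adjusted p of 0.0265 from edgeR. The groups did not overlap for it, as was so for 3 of 30 members and for 16.7% of all genes. Its call was lost without L4440_ZK replicate 1 or 3 or ZK795.1 replicate 1 or 2, at adjusted p-values of 0.101 to 0.126 from edgeR. The median of the members fell to 0.89 without ZK795.1 replicate 1 and to 0.88 without L4440_ZK replicate 3.

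Replicates 1 and 2 of ZK795.1 match C01A2.5 in tag and mark, and replicate 3 does not. For msp-50 the counts were 110, 96 and 6, and for msp-81 they were 101, 95 and 8, where L4440_ZK held 13, 20 and 6 for msp-50 and 21, 7 and 4 for msp-81. Replicate 3 held no more counts of msp-50 and msp-81 than the highest control library, and its 8 counts of msp-51 exceeded the 4 of the highest control. With the matching libraries left out, or with a term for the match in the fit, edgeR called 0 members and the medians were -0.22 and 0.03. Without replicate 3, in contrast, 13 members were called higher. The fold change of msp-51 was 1.39 without the matching libraries, with an adjusted p of 0.750 from 1 remaining ZK795.1 library. The part of the match in the ZK795.1 value was not tested independently of the counts that prompted it. Only 15 of the 30 members passed the filter with these 6 libraries alone, and none of them was called. Partner genes of MSP had 0 of 18 called by edgeR, 1 at an unadjusted p under 0.05, and a median of 0.26.

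In the group labelled M04C9.5, 0 of 30 members were called by edgeR or DESeq2, with 0 at an unadjusted p under 0.05, where 19.8% of all genes were called, 10.3% higher and 9.5% lower. Only 9 members passed the filter with these 6 libraries alone, and 20 in the ZK fit without C01A2.5. Most of the 30 thus entered the test through other groups. The gene msp-79 had 0 counts in both groups, so it could not be called. The smallest p belonged to msp-51, with 3, 4 and 13 counts against 3, 4 and 1 and a fold change of 1.21 ± 0.61 at an adjusted p of 0.171. The high library was replicate 3, which matches C01A2.5 in tag and mark and also held 78 counts of msp-50 where replicates 1 and 2 held 12 and 9. The median of the members was 0.59, and it was -0.05 without that library and 0.22 without L4440_ZK replicate 3. Partner genes had a median of -0.04, with 1 of 18 called higher.

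In R186.7, RNAi against the pinin gene pnn-1, edgeR and DESeq2 called 0 of 30 members, with 0 at an unadjusted p under 0.05, where 2.55% of all genes were called, 1.86% higher and 0.691% lower. Only 6 members passed the filter with these 6 libraries alone, and 20 in the ZK fit without C01A2.5. Most of the 30 thus entered the test through other groups. The genes msp-113, msp-58, msp-79 and msp-74 had 0 counts in both groups, so they could not be called. The smallest p belonged to msp-63, with 2, 1 and 2 counts against 0, 0 and 1, too few to give a fold. The family sum of 3.95 to 5.53 CPM lay within the 1.90 to 6.73 of L4440_ZK, and the median of the members was 0.00. Partner genes had a median of 0.43, with 1 of 18 called higher, the MSP-domain gene ssp-10 at 0.54 ± 0.13. The ZK795.1, M04C9.5, R186.7 and C01A2.5 comparisons share their controls, in which replicate 3 held the fewest MSP counts.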

How the data were processed

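Read counts per gene for 30 libraries were used as deposited by the authors. Per the submitters' processing notes, the tools were bcl2fastq 1.8.4, STAR 2.4.1d and featureCounts 1.4.6-p4, with genome build WBcel235. The labels name Illumina's TruSeq RNA v2 kit, whose standard protocol enriches poly-A RNA without marking strand. The aligner's and counter's settings for reads matching several genes, and the annotation release, are not given in the sources used here. A second deposited table with RPKM values was not used here. Symbols came from a table of gene IDs and names, which matched 43693 of 46748 IDs, and biotypes and coordinates from Ensembl release 115 of the same build.

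Genes were filtered with filterByExpr, and libraries were scaled by trimmed-mean (TMM) factors. The quasi-likelihood models, with robust estimation, came from edgeR 4.0.16, run under R 4.3.3. Simulated counts were tried beforehand, but the outcome is not given here. No conclusion is drawn from that trial for MSP genes, whose mean level in L4440_ZK was at most 0.453 CPM after scaling, for msp-64. The 15 libraries of a prefix were fitted with 5 group means, leaving 16495 genes (ZK) and 15795 (RM) and 10 residual degrees of freedom. The L4440 groups were compared in a joint model of the 30 libraries (16867 genes). The Benjamini-Hochberg adjustment ran over all genes of a comparison, and genes under 0.05 were called. Of the 31 MSP genes, 30 passed the filter in the ZK fit (not msp-32) and 26 in the RM fit (not msp-113, msp-58, msp-79, msp-32 or msp-74). The biological coefficient of variation was 5.43% for ZK and 11.7% for RM. Family sums were divided by library totals, and levels per kilobase by coding length.

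MSP genes and gene lists were chosen with earlier results of these data known. All members may be named. Values in every library were given for the 4 highest and 2 lowest members in C01A2.5, for up to 4 called members with the smallest p per comparison, and otherwise for the member with the smallest p. Members shown for their neighbours or for their contrast by tag and mark, and the genes F21F3.2, msrp-5 and D1086.17, were named after their values had been seen. Up to 3 genes of a list were named, by smallest p in C01A2.5. Alternatives were relative log expression factors, library totals, no filter, DESeq2 1.42.0, other sets of libraries, a replicate block, each library left out, and, after seeing the data, the settings on lane tag and mark.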

Additional observations from a re-analysis of the deposited data

How the results depend on the processing

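Over the alternatives run, 30 to 31 MSP genes were called higher in C01A2.5 and 22 to 28 in L4440_RM against L4440_ZK. For ZK795.1 the 1 call became 3 without the filter, 2 with DESeq2, and 0 with the 6 libraries compared alone, with all 30 libraries in the fit, with all 6 L4440 libraries, without the libraries matching C01A2.5 in lane tag and mark and with a term for that match. Leaving out single libraries gave 0 to 13. For F25H2.5 the 2 calls became 5 with DESeq2, 17 with the 6 libraries alone, 7 without the matching libraries, 5 with the term, 0 with all 6 L4440 libraries, and 1 to 3 leaving out single libraries. F55H2.6 went from 0 to 2 higher with the 6 libraries alone and to 5 higher with all 6 L4440 libraries, where M04C9.5 went to 4 lower. The causes were not tested. Without the matching libraries the family sum was 3.85 CPM in ZK795.1 and 54.4 in F55H2.6, from 1 library each, assumed to vary like the other groups in the fits. No called gene changed direction. With all 6 L4440 libraries the member median moved from 0.00 to -2.09 in R186.7 and from 9.23 to 7.27 in C01A2.5. In F25H2.5, F55H2.6 and F26D12.1 it stood at -0.04, 0.98 and 0.92. Under the same setting the member median changed sign for M04C9.5 (-1.38), ZK795.1 (-0.52) and R04E5.10 (0.32). It did so without the matching libraries for ZK795.1 (-0.22) and M04C9.5 (-0.05), with the term for M04C9.5 (-0.24), and by small amounts for F55H2.6 and F26D12.1 without single libraries. Of 163 repeats for named genes 18 lost their call. The labels do not pair libraries, and replicate numbers follow accession order. A replicate block left the counts of calls at 30, 1, 0 and 0 for C01A2.5, ZK795.1, M04C9.5 and R186.7 and at 2, 0, 0 and 0 for F25H2.5, F55H2.6, R04E5.10 and F26D12.1. Same-numbered deviations correlated at -0.07 to 0.20, except in F26D12.1 at 0.11, 0.19 and 0.55. No non-coding MSP row was in the table, so adding them gave no value. Counts in L4440_ZK were low, at most 23 for msp-64, so folds against it are imprecise.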
